A study of Homo sapiens with 24 samples.

Results

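The difference between the cell lines Cal33 and SAS in their transcriptional response to 4 Gy of X-rays is described here: the log2 fold change of 4 Gy against sham in Cal33 minus that in SAS, called the interaction below. It was taken over 12 of the 24 libraries of the series, 3 in each of 4 groups: sham-treated Cal33, Cal33 given a single dose of 4 Gy, sham-treated SAS, and SAS given the same dose. Both are established human tongue carcinoma lines (HNSCC, squamous carcinoma of the head and neck) labelled wild type, RNA was isolated after 24 h, and none of the 12 libraries received GSK-J1, the histone demethylase inhibitor given to the other 12. Of 24621 genes tested, 23 were called for the interaction, and these 23 genes are its members. A positive interaction means that the change in Cal33 lay above that in SAS, and a negative one that it lay below.

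Ionizing radiation breaks DNA, and besides arrest and repair, irradiated tumor cells can switch on inflammatory and interferon programs. Type I and type III interferons act through surface receptors and Janus kinases on transcription factors that bind response elements before interferon-stimulated genes. NF-kB and AP-1 drive cytokines, matrix and adhesion genes.

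Sequencing depth, counted on the strand of the gene, lay between 54200036 and 96138774 counts per library. Of 9 markers of squamous epithelium, all had counts, with a summed level of 6631 to 10053 CPM (counts scaled to TMM library sizes) in Cal33 and 3249 to 4564 in SAS. The 5 leukocyte markers summed to at most 0.381 CPM, and the 6 fibroblast markers to 23.9 to 44.5 in Cal33 and 1.77 to 5.18 in SAS, mostly COL1A1. The endothelial markers VWF and CDH5 summed to 11.0 to 97.7 CPM, and both ends of this range were SAS sham libraries. The list of markers of other cell types summed to 96.4, 102 and 13.4 CPM in SAS sham replicates 1, 2 and 3. The SAS sham libraries thus differed in these markers, with replicate 3 the lowest. Calls without SAS sham replicate 3 are given below. Carry-over between the lines was looked for with genes of at least 10 CPM in each sham library of one line and no count in those of the other: the 9 such genes of Cal33 had 0, 1 and 0 counts in the 3 irradiated SAS libraries, and the 15 of SAS had 2, 1 and 5 counts in the irradiated Cal33 libraries. Mitochondrially encoded RNA took 9.86 to 10.06% of counts in Cal33 sham, 6.76 to 7.79% in Cal33 after 4 Gy, 3.65 to 4.65% in SAS sham and 4.37 to 5.87% in SAS after 4 Gy. Without these and small structural RNAs, the same 23 genes were called.

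The responses differed in a small set of genes that pass the test, 12 with a positive and 11 with a negative interaction, which is 0.0934% of the genes tested (0.0487% positive and 0.0447% negative; edgeR quasi-likelihood F test, Benjamini-Hochberg adjusted p under 0.05). In these bulk libraries, fewer cells with a transcript and less of it per cell cannot be told apart. The 12 positive genes included F3, CPA4, ALOXE3, HK2, IL6, IFIT5, BIK, PLSCR1, BEX2, VIM and the noncoding RP11-269F21.3, and all 12 rose in Cal33. The 11 negative genes were BARX2, WNT9A, the noncoding AC016683.6, SERPINB10, NOX5, CPT1A, CNTN1, ALDOC, HAS2, OSTF1 and MAOA, of which 8 rose in SAS and 5 fell in Cal33, with SERPINB10 and HAS2 doing both. In 14 of the 23 genes the estimates of the lines had opposite signs, in 8 they had the same sign with the larger change in Cal33, and in AC016683.6 the larger change was in SAS. By the test within each line, 14 were called in Cal33 and not in SAS, 6 in SAS and not in Cal33, and 3 (IL6, SERPINB10 and HAS2) in both.

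**Figure D1:**
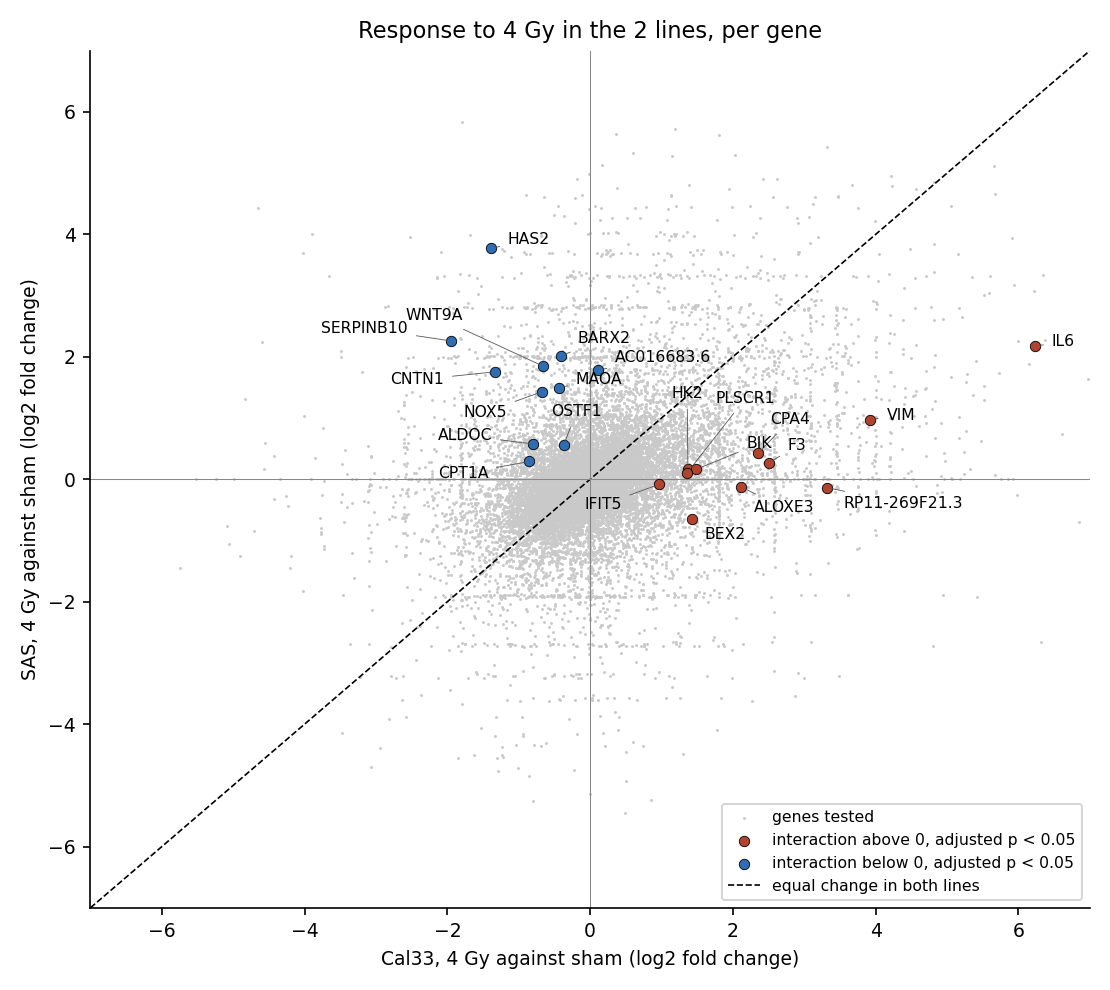
Log2 fold change of 4 Gy against sham in Cal33 (horizontal axis) and SAS (vertical axis) for each gene tested, with 7 genes beyond the axes left out; the dashed line marks equal change. The called genes with a positive interaction (red, 11 of 12 shown) lie below the line and right of 0, and the 11 with a negative one (blue) lie above it.

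Most of the response was not called different. Within the lines, 1966 genes passed in Cal33 (1105 higher and 861 lower, 4.49 and 3.5% of those tested) and 311 in SAS (175 higher and 136 lower, 0.711 and 0.552%). The lists shared 140 genes, 7.12% of the Cal33 list and 45.0% of the SAS list, of which 138 moved the same way. The 1105 genes called higher in Cal33 had a median log2 fold change of 1.46 there, the measure that chose them, and of 0.43 in SAS, where 84.1% of them were above 0 against 47.9% of all genes tested. The 175 called higher in SAS had a median of 1.74 in SAS and 0.76 in Cal33, where 85.7% were above 0 against 49.0% of all genes. Nearly all genes called in one line and not in the other were not called for the interaction.

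The calls were close to the threshold, with adjusted p between 0.0221 and 0.0497. No gene was called when any 1 of 5 libraries was left out (Cal33 4 Gy replicate 3, SAS 4 Gy replicate 1, 2 or 3, or SAS sham replicate 1), where the 23 genes had adjusted p of 0.0642 to 0.164 and 1826 to 1895 genes had an unadjusted p under 0.05, against 2208 with all 12. Without SAS sham replicate 3, 96 genes were called, all 23 among them, without Cal33 4 Gy replicate 2, 67, without Cal33 sham replicate 2, 10, and without SAS sham replicate 2, 4. DESeq2, run on the same 12 libraries, called 364, again all 23 among them. With the replicate number as a block in SAS, where same-numbered libraries deviated together, 16 genes were called, of which 10 are among the 23 (BARX2, F3, CPA4, WNT9A, AC016683.6, SERPINB10, NOX5, CPT1A, ALOXE3 and VIM), and the other 13 had adjusted p of 0.0513 to 0.0593. The sign of the interaction of all 23 genes was the same in each of the 21 alternative fits.

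Among the positive genes, F3 and CPA4 had the smallest p. F3 encodes tissue factor, the membrane protein that starts the extrinsic coagulation cascade (chromosome 1, 94994781 to 95007356 in hs37d5). F3 had 93.6, 175 and 155 CPM in the 3 Cal33 sham libraries and 873, 682 and 839.5 after 4 Gy, and in SAS it was 1146, 908 and 1433 in sham and 1494, 1345 and 1359 after 4 Gy. The Cal33 groups did not overlap and the SAS groups did, with the irradiated Cal33 libraries still below every SAS library. F3 rose 5.66-fold in Cal33 (adjusted p = 9.89e-05) with a ratio of 1.20 in SAS (not called, adjusted p = 0.564), an interaction of 2.23 ± 0.29 (log2 scale, ± standard error here and below, adjusted p = 0.0221). CPA4, a secreted carboxypeptidase (chromosome 7, 129932974 to 129964020), had 57.3, 65.3 and 49.2 CPM in Cal33 sham and 309, 273 and 296 after 4 Gy. In SAS it had 159.5, 131 and 239.7 in sham and 214, 254 and 244 after 4 Gy, so that the irradiated Cal33 libraries lay above all 6 SAS libraries and the sham ones below all of them. The interaction was 1.93 ± 0.26 (adjusted p = 0.0221).

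The promoter windows of both genes are shown because each holds a pair of matches to the AP-1 letters TGANTCA, searched on both strands and printed in capitals. The windows run from 250 bases before to 50 after the start (RefSeq, GRCh38.p14), at chr1:94541710-94542009 on the minus strand and chr7:130292911-130293210 on the plus strand, 5′ to 3′. These letters stand in a window of 9.37% of the 27305 genes in the table and overlap neither of the other motifs below, and the matches begin 223 and 210 bases before the start of F3 and 48 and 15 before that of CPA4.
F3: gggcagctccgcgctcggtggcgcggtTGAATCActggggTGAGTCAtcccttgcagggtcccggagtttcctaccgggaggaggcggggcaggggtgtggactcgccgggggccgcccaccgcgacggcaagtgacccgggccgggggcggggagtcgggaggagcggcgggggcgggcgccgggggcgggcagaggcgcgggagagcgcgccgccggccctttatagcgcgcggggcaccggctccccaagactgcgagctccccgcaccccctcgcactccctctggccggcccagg
CPA4: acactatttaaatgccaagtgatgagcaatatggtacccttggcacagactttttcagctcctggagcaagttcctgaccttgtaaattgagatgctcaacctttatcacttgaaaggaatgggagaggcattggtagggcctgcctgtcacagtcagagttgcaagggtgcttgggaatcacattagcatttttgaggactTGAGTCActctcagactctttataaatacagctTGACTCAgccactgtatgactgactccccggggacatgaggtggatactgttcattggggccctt
Among the 23 genes, 16 have a window in the table, 9 of the positive and 7 of the negative ones. TGANTCA stands in those of 4 positive genes (F3, CPA4, ALOXE3 and IFIT5) and in none of the 7 negative ones, which is a description of letters and says nothing about binding.

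Metabolic and death-related genes were also among the positive members. HK2, a hexokinase that commits glucose to glycolysis, had 40.5, 48.6 and 53.1 CPM in Cal33 sham and 129, 105 and 134 after 4 Gy. In SAS its level was 72.4, 83.0 and 64.9 in sham and 81.9, 84.1 and 82.6 after 4 Gy, overlapping groups whose irradiated libraries lay between the sham and irradiated groups of Cal33. The interaction was 1.20 ± 0.19 (adjusted p = 0.0330). ALDOC, the aldolase C of the same pathway, went against it: 75.9, 56.8 and 79.3 CPM in Cal33 sham and 41.5, 41.9 and 38.9 after 4 Gy, against 0.948, 1.04 and 1.02 in sham and 1.37, 1.31 and 1.78 after 4 Gy in SAS. It fell in Cal33 (log2 fold change -0.79 ± 0.14, adjusted p = 0.00532), was not called in SAS (0.58 ± 0.17, adjusted p = 0.118), and had an interaction of -1.37 ± 0.22 (adjusted p = 0.0357). BIK, which promotes apoptosis against BCL2, had 4.10, 3.70 and 4.18 CPM in Cal33 sham and 13.0, 9.01 and 11.6 after 4 Gy. In SAS it had 9.94, 11.0 and 9.73 in sham and 12.1, 11.0 and 11.2 after 4 Gy, levels that lay within the span of the irradiated Cal33 libraries. Its interaction was 1.32 ± 0.22 (adjusted p = 0.0448). ALOXE3, a lipoxygenase of the epidermal barrier, had 2.22, 2.28 and 2.72 CPM in Cal33 sham and 12.9, 7.37 and 11.1 after 4 Gy, whereas the SAS groups, 4.03, 4.02 and 6.59 in sham and 3.99, 4.30 and 5.14 after 4 Gy, overlapped (interaction 2.24 ± 0.34, adjusted p = 0.0330).

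IL6 and VIM rose from near 0 in Cal33. IL6, an interleukin that signals through STAT3, had 0.0134, 0.133 and 0.0206 CPM in Cal33 sham and 5.67, 3.00 and 3.24 after 4 Gy, and 1.88, 1.66 and 2.45 in sham and 6.67, 10.6 and 9.88 after 4 Gy in SAS. No groups of a line overlapped, and IL6 rose in both lines, by a log2 fold change of 6.23 ± 0.52 in Cal33 (adjusted p = 9.69e-05) and 2.17 ± 0.36 in SAS (adjusted p = 0.0118). The interaction of 4.06 ± 0.64 (adjusted p = 0.0347) rests on Cal33 sham libraries of 1 to 9 counts, and each irradiated Cal33 library stayed below each irradiated SAS library. VIM, the intermediate filament protein of mesenchymal cells, had 0.0670, 0.162 and 0.0721 CPM in Cal33 sham, 1.34, 1.38 and 1.77 after 4 Gy, 3.05, 2.68 and 3.17 in SAS sham and 6.07, 3.27 and 8.13 in irradiated SAS. It rose in Cal33 (3.92 ± 0.40, adjusted p = 0.000431), was not called in SAS (0.97 ± 0.30, adjusted p = 0.134) and had an interaction of 2.94 ± 0.50 (adjusted p = 0.0484). At these levels VIM was a low transcript in both lines.

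BEX2 and RP11-269F21.3 complete the positive genes outside the interferon group. BEX2, a small X-linked protein of the BEX family, had 0.911, 0.766 and 0.690 CPM in Cal33 sham and 2.77, 1.52 and 2.07 after 4 Gy. In SAS it had 2.15, 1.83 and 1.65 in sham and 1.28, 1.18 and 1.14 after 4 Gy, non-overlapping groups in the other direction that were not called (log2 fold change -0.64 ± 0.25, adjusted p = 0.226). The interaction was 2.07 ± 0.35 (adjusted p = 0.0484). RP11-269F21.3, a noncoding RNA of chromosome 4 (LINC02945 in current annotation), had 12.2, 18.8 and 13.0 CPM in SAS sham and 11.4, 15.0 and 13.7 after 4 Gy, but at most 3 counts in a Cal33 sham library and 13 to 21 in the irradiated ones (interaction 3.45 ± 0.59, adjusted p = 0.0484).

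**Figure D2:**
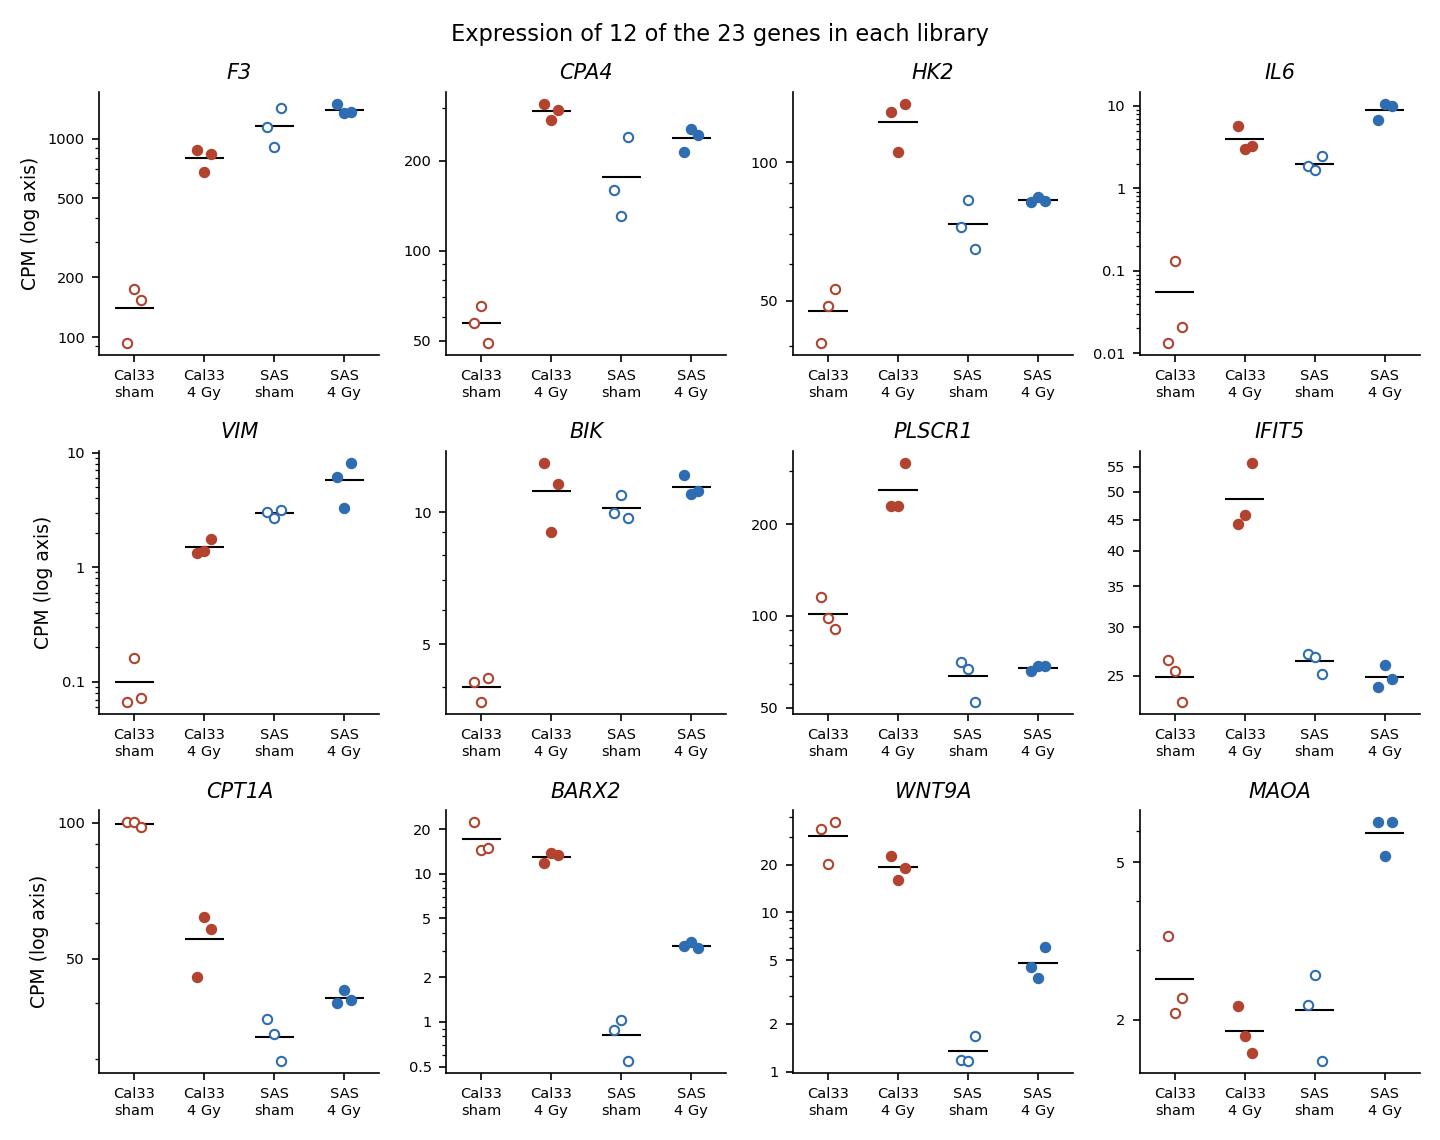
CPM (log axes that do not start at 0) of 12 of the 23 genes; each circle is 1 library, open for sham and filled for 4 Gy, red for Cal33 and blue for SAS, and bars mark group means (n = 3). F3, CPA4, HK2, PLSCR1 and IFIT5 rose in Cal33 and had overlapping groups in SAS, while BARX2, WNT9A and MAOA rose in SAS.

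Of the genes with a negative interaction, BARX2, WNT9A, NOX5, MAOA, AC016683.6 and OSTF1 were called in SAS and not in Cal33. BARX2, a homeobox transcription factor (chromosome 11, 129245835 to 129322171), had 0.885, 1.03 and 0.546 CPM in SAS sham and 3.24, 3.46 and 3.14 after 4 Gy, and 22.4, 14.5 and 15.1 in sham and 11.9, 13.8 and 13.4 after 4 Gy in Cal33. It rose 4.05-fold in SAS (log2 fold change 2.02 ± 0.24, adjusted p = 0.00208), and the Cal33 value was -0.41 ± 0.21 (adjusted p = 0.252), an interaction of -2.43 ± 0.31 (adjusted p = 0.0221). The lowest Cal33 library was still above the highest SAS library. WNT9A, a secreted WNT ligand (chromosome 1, 228106357 to 228135599), had 1.19, 1.17 and 1.66 CPM in SAS sham and 4.54, 3.86 and 6.10 after 4 Gy, and 33.7, 20.1 and 37.1 in sham and 22.6, 16.0 and 19.1 after 4 Gy in Cal33, where the groups overlapped (interaction -2.50 ± 0.35, adjusted p = 0.0260).

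Both oxidases of the set behaved alike in direction. NOX5, a calcium-dependent NADPH oxidase that makes superoxide, had 0.506, 0.505 and 0.710 CPM in SAS sham and 1.56, 1.64 and 1.5 after 4 Gy, and 2.95, 2.61 and 2.35 in sham and 1.37, 1.90 and 1.70 after 4 Gy in Cal33 (interaction -2.10 ± 0.32, adjusted p = 0.0330). MAOA, the monoamine oxidase of the outer mitochondrial membrane, had 2.18, 2.59 and 1.57 CPM in SAS sham and 6.31, 5.20 and 6.32 after 4 Gy, and 3.26, 2.08 and 2.26 in sham and 2.16, 1.82 and 1.64 after 4 Gy in Cal33 (interaction -1.93 ± 0.33, adjusted p = 0.0497). The MAOA groups overlapped in Cal33 and not in SAS, whose irradiated libraries lay above the other 9. AC016683.6, a noncoding RNA that overlaps PAX8 on the other strand (PAX8-AS1 in current annotation), was at 95.2, 86.8 and 87.9 in sham and 101, 96.6 and 94.8 after 4 Gy CPM in Cal33, and in SAS at only 0.158, 0.189 and 0.120 in sham and 0.418, 0.647 and 0.537 after 4 Gy, 10 to 42 counts a library (interaction -1.67 ± 0.25, adjusted p = 0.0330).

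SERPINB10 and HAS2 moved in opposite directions, each change called. SERPINB10, a serine protease inhibitor of the clade B cluster (chromosome 18, 61564408 to 61603345), had 3.82, 2.24 and 1.06 CPM in Cal33 sham and 0.598, 0.735 and 0.498 after 4 Gy. In SAS it had 0.158, 0.142 and 0.0765 in sham and 0.562, 0.780 and 0.448 after 4 Gy, which brought the irradiated groups of the lines to overlapping levels. It fell in Cal33 (-1.95 ± 0.41, adjusted p = 0.0111) and rose in SAS (2.26 ± 0.49, adjusted p = 0.0407), an interaction of -4.22 ± 0.64 (adjusted p = 0.0330). HAS2, a synthase of the matrix polysaccharide hyaluronan, was scarce, with 21 to 88 counts in a Cal33 library, 0 or 1 in SAS sham and 4 to 16 in irradiated SAS. Its levels were 0.710, 1.30 and 0.494 in sham and 0.267, 0.321 and 0.359 after 4 Gy CPM in Cal33 and 0, 0.0158 and 0.0109 in sham and 0.144, 0.0761 and 0.205 after 4 Gy in SAS (interaction -5.16 ± 0.86, adjusted p = 0.0462).

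CPT1A and CNTN1 were called in Cal33, where both fell, and OSTF1 in SAS, where it rose. CPT1A, which loads long-chain fatty acids onto carnitine for import into mitochondria (chromosome 11, 68522088 to 68611878), had 100.5, 100.3 and 97.9 CPM in Cal33 sham and 45.6, 61.8 and 58.2 after 4 Gy, against 36.8, 34.1 and 29.7 in sham and 40.0, 42.7 and 40.6 after 4 Gy in SAS. The log2 fold change was -0.85 ± 0.12 in Cal33 (adjusted p = 0.00140) and 0.29 ± 0.12 in SAS (adjusted p = 0.272), an interaction of -1.14 ± 0.17 (adjusted p = 0.0330). CNTN1, a neural cell adhesion molecule, had 48.6, 52.5 and 46.6 CPM in Cal33 sham and 16.8, 25.1 and 16.6 after 4 Gy, and 1 to 17 counts in a SAS library (interaction -3.09 ± 0.48, adjusted p = 0.0330). OSTF1, an adaptor protein first described in osteoclasts, had the smallest interaction of the 23, -0.92 ± 0.16 (adjusted p = 0.0484), from 54.1, 55.1 and 52.6 to 41.6, 39.3 and 44.1 CPM in Cal33 (not called, adjusted p = 0.0568) and from 18.2, 18.6 and 14.9 to 24.0, 26.2 and 25.6 in SAS.

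In most members the gene rose in the line with the lower sham level. All 11 genes with a negative interaction had the lower sham mean in SAS, and 10 of the 12 with a positive one had it in Cal33, with PLSCR1 among the exceptions. After 4 Gy the distance between the lines in log2(mean CPM + 0.1) was smaller than in sham for 18 of the 23, against 53.5% of all genes tested, and its median fell from 2.02 to 1.17. The sham libraries enter both the interaction and this distance, so the count is a description with no test. PLSCR1, IFIT5, ALOXE3 and MAOA were among the 5 genes whose distance grew.

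**Figure D3:**
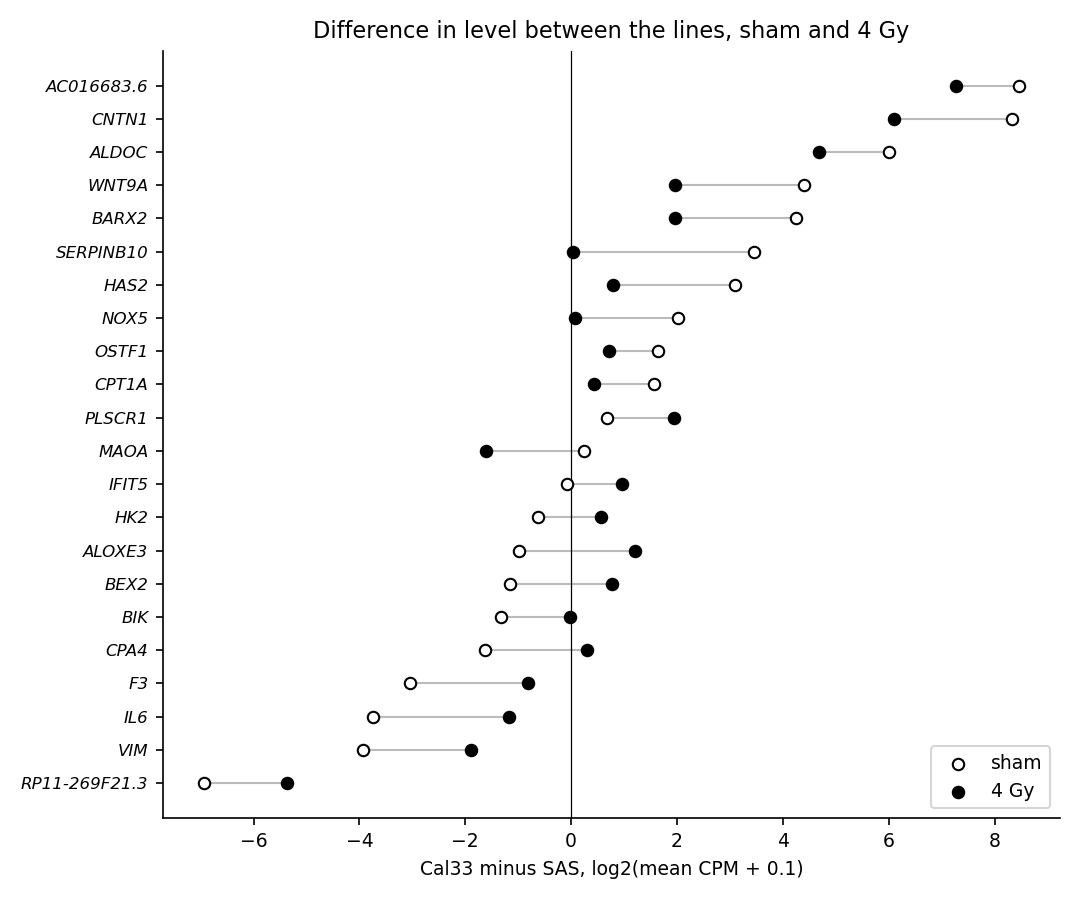
Cal33 minus SAS in log2(mean CPM + 0.1) for 22 of the 23 genes, in sham (open) and after 4 Gy (filled), ordered by the sham value. In 18 of the 22 the filled point lies nearer to 0.

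Interferon-stimulated genes had the largest median interaction of the 24 gene lists with all 12 libraries, while the NF-kB list was above them without Cal33 4 Gy replicate 3 (1.68 against 1.22), Cal33 sham replicate 3, SAS 4 Gy replicate 1 or SAS sham replicate 2. All 42 tested members had a positive interaction, against 50.9% of all genes tested, with a median of 1.31 and a range of 0.46 to 4.10, where the median of all genes was 0.0077. This list, like the others, was chosen with earlier results of these data known, and its members were measured in the same 12 libraries. The counts given here therefore describe the list and add no separate support. In Cal33, 37 of the 42 rose and none fell, against 4.49 and 3.5% of all genes (median log2 fold change 1.65). In SAS none passed, against 0.711% of all genes higher and 0.552% lower, and the lowest adjusted p was 0.127. There 25 values lay above 0 and 17 below, with a median of 0.17. For the interaction itself, 2 members passed, IFIT5 among them, against 0.0487% of all genes in that direction. An adjusted p under 0.1 was found in 11 members (68 of all genes in that direction). An unadjusted p under 0.05 was found in 35, against 4.93% of all genes in that direction (4.04% in the other). The median was 1.18 to 1.51 when any 1 library was left out. With the block in SAS no member passed (8 of all genes did in that direction). With the replicate block within each line 16 did, of 111 genes called in that direction, although the numbers pair libraries in SAS and not in Cal33. With DESeq2 17 members passed, of 228 genes in that direction, and none passed in the other.

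The summed level of the 42 genes was 5571, 4092 and 4140 CPM in Cal33 sham and 13335, 10532 and 17202 after 4 Gy, and 2590, 2412 and 1582 in SAS sham and 1859, 2139 and 1796 in irradiated SAS. Thus Cal33 began higher, 36 of the 42 genes having the higher sham mean there, and moved further away. IFIT5, which binds triphosphorylated RNA (chromosome 10, 91174343 to 91180758), had overlapping sham levels in the lines, 26.5, 25.4 and 22.6 CPM in Cal33 sham and 27.2, 26.8 and 25.1 in SAS sham. After 4 Gy it had 44.2, 45.8 and 55.8 CPM in Cal33 and 24.0, 26.0 and 24.7 in SAS, an interaction of 1.05 ± 0.17 (adjusted p = 0.0347). PLSCR1, a phospholipid scramblase induced by interferon that was not on the list (chromosome 3, 146232967 to 146262651), had 115, 98.7 and 90.7 CPM in Cal33 sham, 230.0, 230.3 and 318 after 4 Gy, and 70.7, 67.2 and 52.3 in sham and 66.0, 68.6 and 68.5 after 4 Gy in SAS (interaction 1.26 ± 0.21, adjusted p = 0.0462).

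**Figure D4:**
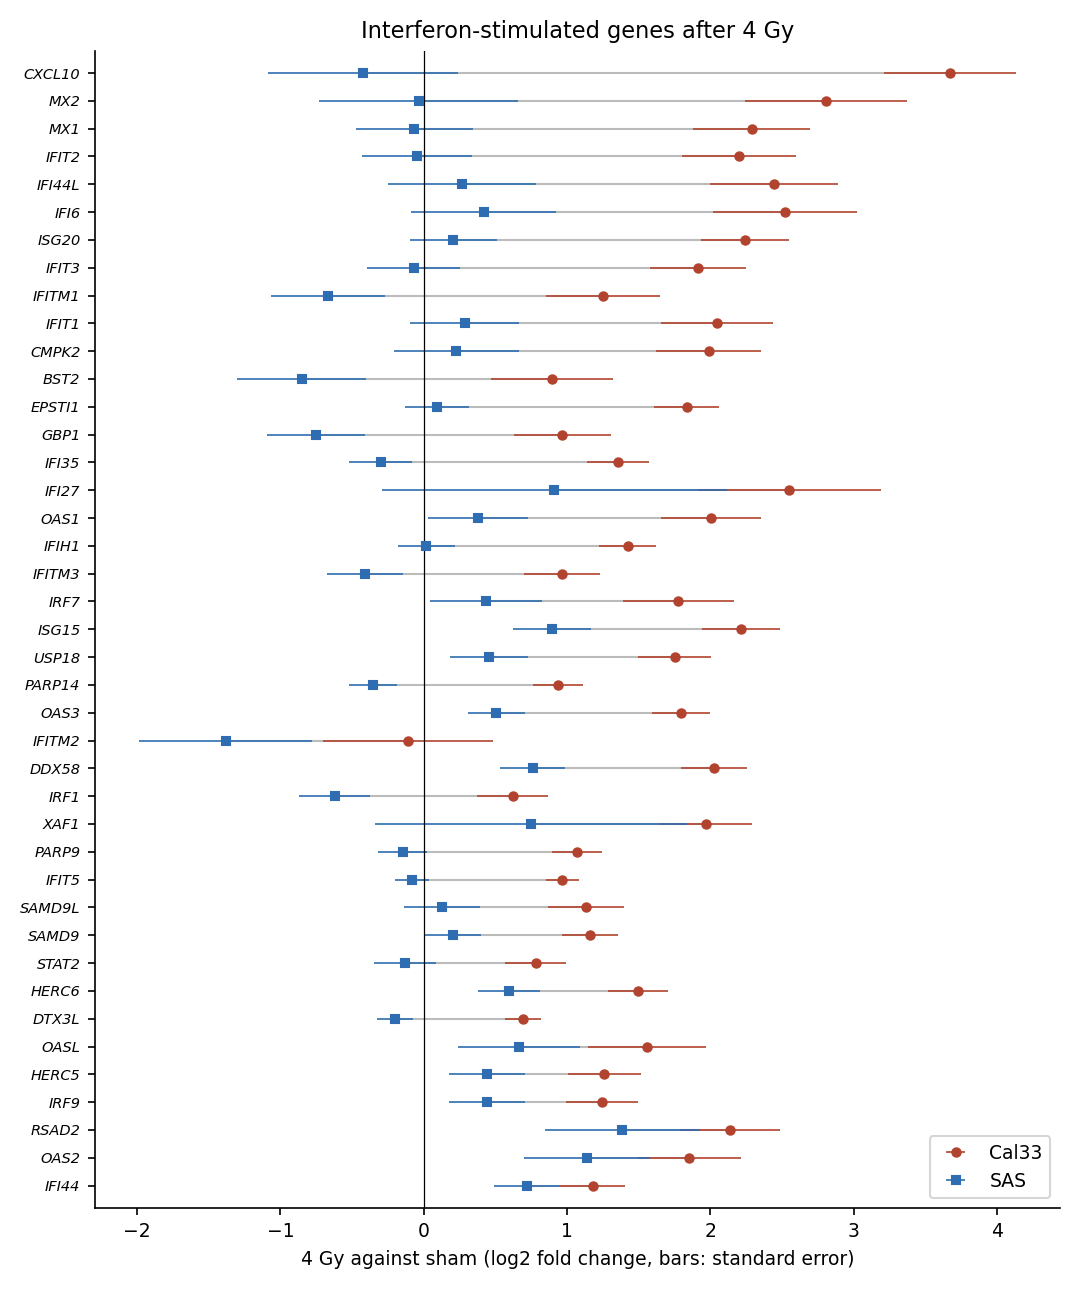
Log2 fold change of 4 Gy against sham (horizontal axis, bars give the standard error) of 41 of the 42 interferon-stimulated genes in Cal33 (red circles) and SAS (blue squares), ordered by the interaction. In every gene the Cal33 value lies right of the SAS value, and the SAS values lie on both sides of 0, from -1.38 to 1.39.

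The promoter windows of IFIT5 and PLSCR1 are shown for the core of the interferon-stimulated response element, GAAANN followed directly by GAAA, in capitals where it matches on either strand. They lie at chr10:89414318-89414617 on the plus strand and chr3:146544558-146544857 on the minus strand (RefSeq, GRCh38.p14, the first listed start of PLSCR1). IFIT5 holds 3 matches, beginning 45, 19 and 4 bases before the start, and PLSCR1 holds 1, beginning 79 bases before it.
IFIT5: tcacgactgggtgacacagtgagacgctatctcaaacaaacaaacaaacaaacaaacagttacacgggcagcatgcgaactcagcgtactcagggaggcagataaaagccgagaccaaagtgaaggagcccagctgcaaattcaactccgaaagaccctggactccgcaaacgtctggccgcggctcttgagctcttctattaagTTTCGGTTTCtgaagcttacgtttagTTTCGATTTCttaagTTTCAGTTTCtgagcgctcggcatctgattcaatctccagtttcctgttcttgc
PLSCR1: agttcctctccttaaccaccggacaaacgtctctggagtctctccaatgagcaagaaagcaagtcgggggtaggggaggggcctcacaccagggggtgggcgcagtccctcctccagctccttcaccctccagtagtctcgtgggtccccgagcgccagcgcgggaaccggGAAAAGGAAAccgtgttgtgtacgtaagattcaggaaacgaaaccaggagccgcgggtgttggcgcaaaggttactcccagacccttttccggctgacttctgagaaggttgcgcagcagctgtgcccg
Of the 33 list genes with a window, 24 hold these letters (72.7%), against 4.38% of the 27305 genes in the table and none of the 7 negative genes with a window. A match is not shown to be bound, and the response of these genes to interferon is part of why the list was drawn up.

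Other members of the list, chosen after their values were seen, had interactions of the same sign that did not pass. CXCL10, a chemokine that attracts T cells, had 0.804, 0.810 and 1.07 CPM in Cal33 sham and 15.7, 5.51 and 13.2 after 4 Gy, and 0.253, 0.237 and 0.0328 in sham and 0.0865, 0.190 and 0.102 after 4 Gy in SAS (interaction 4.10 ± 0.80, adjusted p = 0.0738). The SAS libraries held only 3 to 16 counts of CXCL10 in sham and 6 to 10 after 4 Gy. EPSTI1 had an interaction of 1.74 (adjusted p = 0.0598), PARP14 of 1.29 (0.0738), IFI35 of 1.66 (0.0738) and IFIH1, a sensor of double-stranded RNA, of 1.41 (0.0738). OAS3, which makes the activator of RNase L, had 356, 246 and 226 CPM in Cal33 sham and 971, 772 and 1139.8 after 4 Gy, and 123, 117 and 78.3 in sham and 156, 156 and 139.6 after 4 Gy in SAS (interaction 1.29 ± 0.28, adjusted p = 0.0990).

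The ligands, sensors and receptors upstream of these genes were added to the named genes after the list values were seen. Of the sensors, IFIH1 and DDX58 are themselves members of the list. IFNB1, the interferon beta gene, had 0 to 3 counts in a Cal33 sham library and 15 to 61 after 4 Gy, and rose in Cal33 (adjusted p = 0.00550). In SAS it had 5 to 9 counts in sham and 2 to 12 after 4 Gy, and its interaction did not pass (5.08 ± 1.22, adjusted p = 0.136). IFNL1, a type III interferon, had 0.764, 0.398 and 0.782 CPM in Cal33 sham and 8.74, 1.85 and 4.19 after 4 Gy (adjusted p = 0.00812 in Cal33). In SAS it had no count in sham and at most 3 in an irradiated library, so that its difference between the lines could not be resolved at this depth. IFNL2 and IFNL3 likewise rose in Cal33 (adjusted p = 0.00812 and 0.0266) and had at most 1 and 2 counts in a SAS library. IFNE, an epithelial type I interferon, had 89 to 202 counts in every library of both lines, was not called in Cal33 (adjusted p = 1.00) and had an interaction of 0.03 ± 0.37 (adjusted p = 1.00). IFNK had at most 5 counts in a library and was not called.

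DDX58 encodes the RNA sensor RIG-I and is a member of the interferon list, so its values are not separate from those of the list. DDX58 had 44.8, 66.3 and 54.0 CPM in Cal33 sham and 206, 152 and 314 after 4 Gy. In SAS it had 15.6, 15.9 and 12.8 in sham and 21.1, 30.4 and 23.6 after 4 Gy (interaction 1.27 ± 0.32, adjusted p = 0.153). The DNA sensor cGAS (MB21D1) had an interaction of 0.16 ± 0.22 (adjusted p = 0.923) and its adaptor STING (TMEM173) of -0.36 ± 0.22 (0.705). The receptor genes IFNAR1, IFNAR2, IFNLR1 and IL10RB were expressed in both lines at sham means of 10.7 to 33.0 CPM and had interactions of -0.21 to 0.04, none called (standard errors 0.18 to 0.29).

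Of 32 NF-kB targets and inflammatory cytokines tested, 25 rose in Cal33 and 5 in SAS (4.49 and 0.711% of all genes did), none fell, and 26 had a positive interaction (median 1.24), with IL6 the one called. Their summed level was 880, 655 and 1105 CPM in Cal33 sham, 4878, 2162 and 1422 after 4 Gy, 1004, 652 and 780 in SAS sham and 1523, 1307 and 1157 in irradiated SAS. Cal33 4 Gy replicate 1 held the most, and without it the median interaction was 0.22. Of the members chosen after their values were seen, IL36G, an interleukin of epithelial inflammation, had an interaction of 4.00 (adjusted p = 0.0738) and IL24, a cytokine of the IL10 family, of 4.09 (0.116). TNFAIP3, the feedback inhibitor of NF-kB, rose in both lines (2.56 in Cal33 and 2.07 in SAS, adjusted p = 0.00108 and 0.0118) with an interaction of 0.49 (adjusted p = 0.851). CXCL1, a neutrophil chemokine, also rose in both (1.75 and 2.70), with an interaction of -0.95 (adjusted p = 0.749).

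The promoter window of IL6 is shown for the NF-kB letters GGGAN followed directly by TTTCC on either strand, of which it holds 1 match, in capitals, beginning 73 bases before the start (chr7:22726950-22727249, plus strand, RefSeq, GRCh38.p14).
IL6: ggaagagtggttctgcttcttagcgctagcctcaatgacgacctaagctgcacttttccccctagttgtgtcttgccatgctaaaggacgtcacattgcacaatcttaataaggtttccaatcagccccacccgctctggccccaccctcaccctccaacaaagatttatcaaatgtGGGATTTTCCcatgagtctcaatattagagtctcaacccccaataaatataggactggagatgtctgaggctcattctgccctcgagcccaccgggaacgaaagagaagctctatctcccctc
These letters stand in 0.678% of the genes of the table, in 10 of the 24 list genes with a window (41.7%), and in no other of the 16 called genes with a window.

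AP-1 and early growth response genes followed the same order: 21 of 25 had a positive interaction (median 0.50, 0.35 to 0.73 without 1 library). In Cal33 11 rose and in SAS none, against 4.49 and 0.711% of all genes, so that the SAS count is near that share. None passed for the interaction (0.0934% of all genes did). KLF6 and KLF4, zinc finger factors of the immediate response, had interactions of 1.03 ± 0.25 and 1.17 ± 0.35 (adjusted p = 0.140 and 0.263). Of 25 targets of TGF-beta and YAP, 18 had a positive interaction (median 0.27, 0.20 to 0.81 without 1 library). AMOTL2, a feedback target of YAP, had 138, 98.8 and 135 CPM in Cal33 sham and 311, 229 and 217 after 4 Gy, and 524, 466 and 520.0 in sham and 439, 475 and 492 after 4 Gy in SAS (interaction 1.13 ± 0.21, adjusted p = 0.0738). THBS1, the matrix protein thrombospondin, had an interaction of 1.42 ± 0.30 (adjusted p = 0.0982). The highest of these medians was without Cal33 sham replicate 1.

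Of 36 genes of epithelial-mesenchymal transition and matrix, 22 had a positive interaction (median 0.22, 0.08 to 0.39 without 1 library), 14 rose in Cal33 and 6 in SAS (against 4.49 and 0.711% of all genes), and VIM was the one called for the interaction (0.0487% of all genes in that direction). The squamous differentiation list was mixed, with 26 of 44 positive (median 0.37, 0.07 to 0.59 without 1 library), 19 risen and 3 fallen in Cal33 (4.49 and 3.5% of all genes) and 5 risen in SAS (0.711%). S100A7 (psoriasin), an antimicrobial protein of keratinocytes, had 0.402, 0.987 and 0.628 CPM in Cal33 sham and 7.68, 8.79 and 3.81 after 4 Gy, while in SAS the groups overlapped at 71.3, 45.5 and 7.98 in sham and 19.5, 22.2 and 6.81 after 4 Gy (interaction 4.70 ± 0.91, adjusted p = 0.0738; with the block in SAS, 0.0188). KRT17, a keratin of injured epithelium, had 429.5, 225 and 166 in sham and 801, 497 and 849 after 4 Gy CPM in Cal33 and 497, 554 and 463 in sham and 386, 363 and 350.3 after 4 Gy in SAS (interaction 1.85 ± 0.38, adjusted p = 0.0875).

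Lists of broad cell functions showed small differences of one sign across their members, with few or no calls. Of 25 cholesterol synthesis genes, 24 had a negative interaction (median -0.55, with -0.49 in Cal33 and 0.08 in SAS), HSD17B7 among them (-0.76 ± 0.27, adjusted p = 0.380). The median was -0.34 without SAS sham replicate 3. All 28 genes of the integrated stress and unfolded protein response had a positive interaction (median 0.39, 0.24 to 0.53 without 1 library). DDIT3, the stress transcription factor CHOP, had 22.3, 16.3 and 24.9 CPM in Cal33 sham and 68.5, 43.8 and 51.0 after 4 Gy, and 33.3, 25.8 and 45.3 in sham and 34.5, 37.2 and 33.4 after 4 Gy in SAS (interaction 1.35 ± 0.30, adjusted p = 0.104), and VLDLR, a lipoprotein receptor, had an interaction of 1.62 ± 0.49 (0.253). Of 78 ribosomal protein genes, 77 had a positive interaction (median 0.26, 0.16 to 0.32 without 1 library). The median change was -0.01 in Cal33 and -0.29 in SAS, where 3 fell (0.552% of all genes did). RPL10, a protein of the large subunit, had 1815, 1599.6 and 1712 CPM in SAS sham and 1289.8, 1186 and 1208 after 4 Gy, against 855, 826 and 895 in sham and 877, 819 and 878 after 4 Gy in Cal33 (interaction 0.48 ± 0.13, adjusted p = 0.210).

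Of 15 mitochondrially encoded genes, 13 had a negative interaction (median -0.69, -0.80 to -0.55 without 1 library), and 6 fell in Cal33 (3.5% of all genes did). MT-CO1 and MT-CO2, subunits of cytochrome c oxidase, had interactions of -0.83 ± 0.22 and -0.73 ± 0.20 (adjusted p = 0.181 and 0.185). Cell cycle lists had small medians: 28 of 31 G2/M genes (median -0.23, -0.43 to -0.10 without 1 library) and 26 of 30 G1/S genes (median -0.18, -0.32 to 0.08 without 1 library) had a negative interaction. Neither list had a call in either line. Of all genes, 4.49% rose and 3.5% fell in Cal33, and 0.711 and 0.552% in SAS. KIF20A, a mitotic kinesin, had an interaction of -0.62 ± 0.24 (adjusted p = 0.432) and RRM1, a subunit of ribonucleotide reductase, of -0.43 ± 0.21 (0.604). The p53 targets had a median of 0.07, 0.03 to 0.20 without 1 library over 30 genes, double-strand break repair genes of -0.04, -0.21 to 0.09 without 1 library over 37, and histone genes of 0.22, -0.20 to 0.59 without 1 library over 50, with no member called for the interaction. The 50 histone genes were scarce, together 65.7 CPM on average in Cal33 sham and 8.11 in SAS sham, and 3 had a group without counts. PLK2, a p53-induced kinase, had an interaction of 0.89 ± 0.20 (adjusted p = 0.106) and GDF15, a secreted stress factor, of 1.52 ± 0.57 (0.419). The latter was 0.83 without Cal33 4 Gy replicate 1, and the irradiated Cal33 libraries held 278, 96.7 and 98.2 CPM of GDF15. CDKN1A, the p53-induced inhibitor of cyclin-dependent kinases, had an interaction of 0.11 ± 0.33 and MDM2 of -0.06 ± 0.17 (adjusted p = 0.996 and 0.993, chosen after their values were seen).

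**Figure D5:**
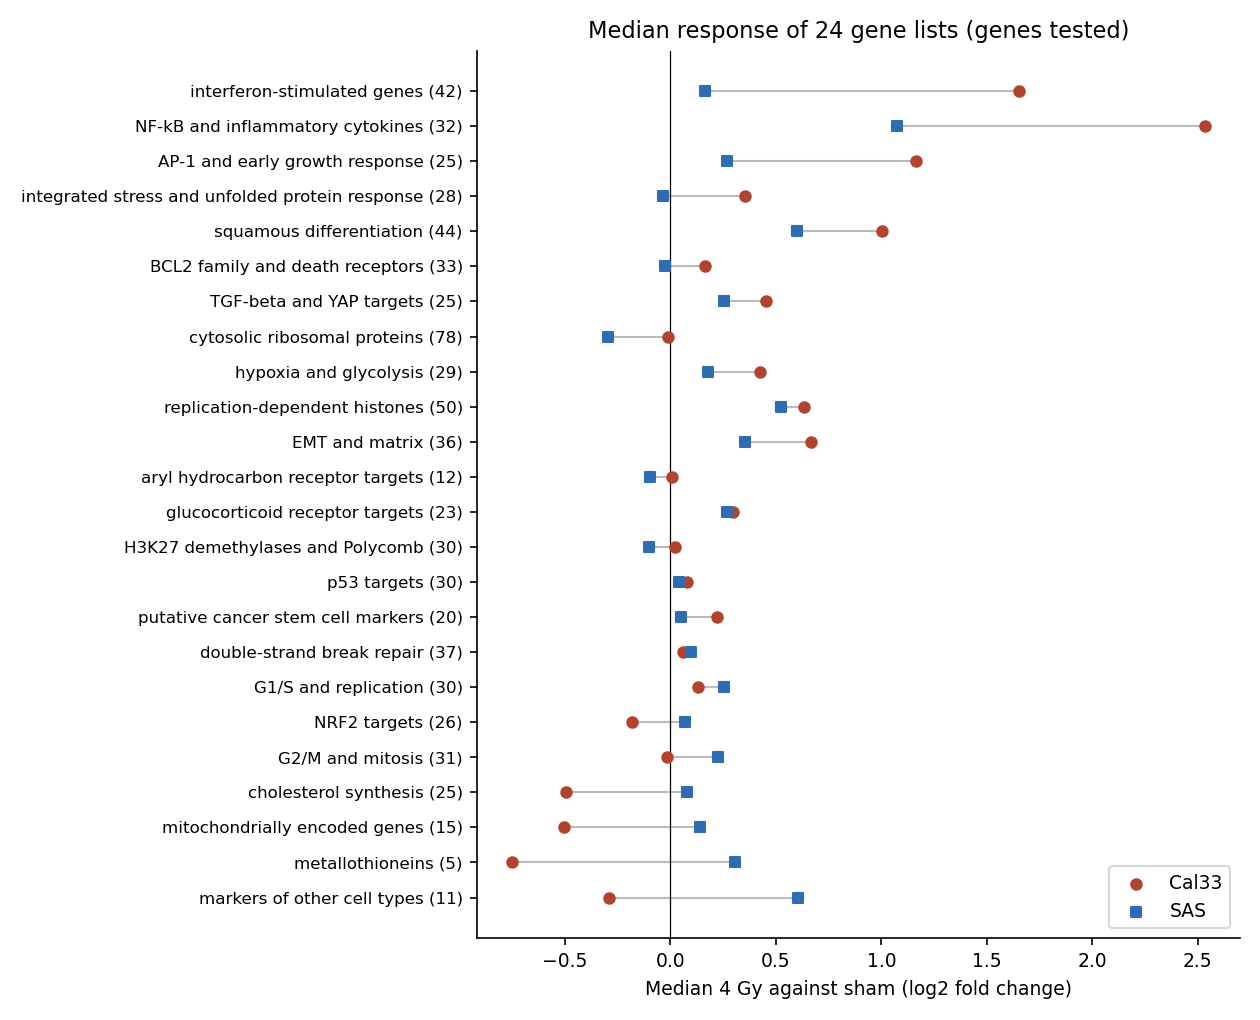
Median log2 fold change of 4 Gy against sham in Cal33 (red circles) and SAS (blue squares) for 24 gene lists, with the number of genes tested in brackets, ordered by the median interaction. The lists at the top, from interferon-stimulated genes to AP-1, lie further right in Cal33, and those at the bottom further left.

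In the remaining lists, 19 of 29 hypoxia and glycolysis genes were positive (median 0.25, 0.09 to 0.32 without 1 library), with HK2 called higher and ALDOC lower, and 24 of 33 BCL2 family and death receptor genes (median 0.28, 0.10 to 0.35 without 1 library), with BIK called. NRF2 targets had a median of -0.19, -0.30 to -0.14 without 1 library over 26 genes, glucocorticoid receptor targets of 0.18, -0.14 to 0.40 without 1 library over 23 and aryl hydrocarbon receptor targets of 0.20, 0.09 to 0.59 without 1 library over 12, with no member called. PGD, a dehydrogenase of the pentose phosphate pathway, had an interaction of -0.71 ± 0.14 (adjusted p = 0.0738), GPX2, a glutathione peroxidase, of -1.52 ± 0.38 (0.152), MFSD2A, a lipid transporter, of -0.88 ± 0.19 (0.0982) and AHRR, which represses that receptor, of 1.24 ± 0.32 (0.156). Some lists hold genes with a group without counts, whose fold is only a bound. With those at a bound of 3 counts over the group, the median was 0.64 for the aryl hydrocarbon receptor list, 0.19 for the BCL2 list and 0.41 for the squamous list. The 5 metallothioneins tested had a median of -1.06, -1.58 to -0.66 without 1 library (-0.50 at such bounds) and 11 markers of other cell types of -1.24, -1.98 to -0.87 without 1 library (-0.73 at such bounds), with no call.

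Finally, the targets of GSK-J1 and the stem cell markers of the study were compared. KDM6A (UTX) had 30.6, 40.0 and 45.7 CPM in Cal33 sham and 71.9, 50.6 and 63.2 after 4 Gy, where it rose (0.67 ± 0.16, adjusted p = 0.0245), and 76.5, 85.7 and 94.2 in sham and 75.6, 96.7 and 93.1 after 4 Gy in SAS. Its interaction of 0.62 ± 0.23 was not called (adjusted p = 0.412). KDM6B (JMJD3) had an interaction of 0.32 ± 0.32 (adjusted p = 0.860) and EZH2, the methyltransferase that sets the mark these enzymes remove, of -0.11 ± 0.25 (0.980). Over 30 H3K27 demethylase and Polycomb genes the median was 0.08, 0.04 to 0.16 without 1 library, and over 20 stem cell markers 0.02, -0.07 to 0.07 without 1 library, with no call for the interaction in either. CD44, the hyaluronan receptor, had 427, 405 and 549.6 in sham and 818, 606 and 659 after 4 Gy CPM in Cal33 and 601, 599 and 728 in sham and 974, 869 and 934 after 4 Gy in SAS, an interaction of 0.07 ± 0.20 (adjusted p = 0.996). ALDH1A3, an aldehyde dehydrogenase, had -0.17 ± 0.28 (0.948), and PROM1 (CD133) was near 0 in both lines, with at most 14 counts in a library.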

How the data were processed

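RNA-seq was performed on total RNA of the HNSCC lines Cal33 and SAS with a stranded kit. The authors aligned reads to hs37d5 with STAR 2.5.3a and SAMtools 1.6 and counted genes with featureCounts of Subread 1.5.1. The values deposited per library are raw counts for 57820 genes, and those assigned to the gene's own strand (94.6 to 95.1% of stranded counts) were used, at 54200036 to 96138774 per library. Groups and replicate numbers were taken from the labels. Nothing states whether replicates came from separate cultures, so the p-values measure the spread between these libraries, which may be technical.

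The 12 libraries were fitted in edgeR 4.0.16 (R 4.3.3) with TMM library sizes, 1 mean per group and the quasi-likelihood F test, for the 24621 genes averaging 1 count or more (common biological coefficient of variation 0.197). The threshold was a Benjamini-Hochberg adjusted p of 0.05. Standard errors were derived from F (log2 fold change over the root of F). On simulated counts for 24162 genes the interaction test found 34% of 2-fold and 91% of 4-fold differences and made 7 false calls. The differences were placed only in genes averaging at least 30 counts in both lines. The counts were drawn independently, without pairing of libraries, so recovery in scarcer genes or paired libraries was not measured.

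The gene lists and members were chosen with earlier results of these data known, and some interferon genes were added after their values were seen. The naming rule took, among called genes averaging 30 counts in both lines, the 15 largest interactions per direction, and besides these up to 5 per direction called opposite ways, up to 3 with fewer counts, and from every list its called genes or else the 2 of smallest p. All 23 called genes fell under it, but 1 of them and some list genes are not reported here. Deviations of same-numbered sham and 4 Gy libraries from their group means correlated at 0.42, 0.33 and 0.56 in SAS and at 0.0995, 0.34 and -0.54 in Cal33, so the numbers were taken to pair libraries in SAS and not in Cal33. Cal33 libraries of different numbers correlated at -0.66 (sham 2 with 4 Gy 1) to 0.62 (sham 3 with 4 Gy 1, and sham 2 with 4 Gy 3). Alternatives were DESeq2 1.42.0, its size factors in edgeR, other count filters and thresholds, a replicate block, all 24 libraries, counts without regard to strand, no mitochondrial and small structural RNAs, and leaving out each library. The block in SAS was added after the data were seen. Promoter windows and motifs were read from a RefSeq table of GRCh38.p14 and matched by symbol, not by coordinate.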

Additional observations from a re-analysis of the deposited data

Results flagged for a closer look

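The change after 4 Gy differed between Cal33 and SAS by the test of the interaction in 23 genes (edgeR, adjusted p under 0.05). With the interaction on the log2 scale in brackets, the change was higher in Cal33 for IL6 (4.06), RP11-269F21.3 (3.45), VIM (2.94), ALOXE3 (2.24), F3 (2.23), BEX2 (2.07), CPA4 (1.93), BIK (1.32), PLSCR1 (1.26), HK2 (1.20), IFIT5 (1.05). It was lower in Cal33 for HAS2 (-5.16), SERPINB10 (-4.22), CNTN1 (-3.09), WNT9A (-2.50), BARX2 (-2.43), NOX5 (-2.10), MAOA (-1.93), AC016683.6 (-1.67), ALDOC (-1.37), CPT1A (-1.14), OSTF1 (-0.92). All 3 replicates of the irradiated group lay on one side of the sham group in the line with the larger change for each of the 23. The genes and the line were chosen from these same libraries, so this describes the calls and adds no separate support. The share of all genes with such groups was not counted. Of these genes, 5 had under 30 counts on average in 1 line (AC016683.6, SERPINB10, CNTN1, HAS2 and RP11-269F21.3).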

How the results depend on the processing

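With 12 libraries, the 23 interaction calls lie near the threshold, and their number moved with most choices. It was 364 with DESeq2, 105 with all 24 libraries, 476 with no count filter, 142 with a replicate block within each line (all 23 among them, although the numbers pair libraries in SAS and not in Cal33), 100 at an adjusted p under 0.1 and 0 under 0.01 (2208 genes had an unadjusted p under 0.05). Leaving out 1 library gave 0 to 96. With all 24 libraries, AC016683.6 (adjusted p = 0.404), CNTN1 (0.238) and HAS2 (0.0616) were not called. Separately, 2 of the added SAS libraries, GSK-J1 replicate 1 and GSK-J1 with 4 Gy replicate 1, hold 377 and 179 counts of the 9 genes that SAS sham lacks. Whether these counts bear on the calls was not tested. DESeq2 size factors (17 calls), at least 10 counts (20), counts without regard to strand (24) and the block in SAS (16, against 23) stayed within 1.5 times, and 22 of the 23 exceed 1 on the log2 scale. In Cal33, 1966 calls became 2952 with DESeq2 and 885 to 2254 without 1 library. In SAS, 311 became 1097 with DESeq2, 661 with all 24 libraries, 1057 with no filter, 550 with the replicate block within each line and 61 to 532 without 1 library. No other alternative moved these 2 counts by over 1.5 times.

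Of the study's genes, none called, EZH2 changed sign without Cal33 sham replicate 2 (-0.2613 to 0.1766 over the left-out libraries), ALDH1A3 without Cal33 4 Gy replicate 3 (-0.5591 to 0.0208) and CD44 without Cal33 4 Gy replicate 1, Cal33 sham replicate 2 or SAS sham replicate 3 (-0.0682 to 0.2134). Of the genes added after their values were seen, the interactions of CDKN1A (-0.11 to 0.47), MDM2 (-0.18 to 0.03), MB21D1 (-0.05 to 0.31), IL10RB (-0.07 to 0.16), IFNLR1 (-0.15 to 0.08) and IFNE (-0.22 to 0.27) also changed sign over the left-out libraries. The median of the mitochondrial list has no value without those genes. With 3 libraries a group, the simulated recovery of 2-fold differences was 34% in genes averaging at least 30 counts in both lines. Differences of that size can thus be missed.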
